A study of Mus musculus with 4 samples.

Results

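Of the 23235 gene symbols measured in pooled mouse pancreatic islets, 87 carried names of the heat shock protein, J-domain, BAG or cytosolic chaperonin families or of the heat shock factors Hsf1 and Hsf2. Organelle chaperone symbols numbering 5 (Hspa5, Hspa9, Dnajb9, Dnajb11 and Dnajc3) were set aside, and 11 symbols had a mean under 1 FPKM, a level in fragments scaled by transcript length and library size. The remaining 71 are described here, among 11953 genes with a mean of at least 1 FPKM. They were chosen by name and level and not by any difference between groups, so each had to be present but none had to differ. By family they are 2 heat shock factors, 11 HSP70 proteins, 2 HSP90 proteins, 37 J-domain proteins, 4 small heat shock proteins, 6 BAG proteins and 9 chaperonin genes. The lowest member was Cct6b, with 1.11, 1.11, 0.897 and 0.906 FPKM in refed KR, refed WT, fasted KR and fasted WT islets. The highest symbol left out was Hspa12b, with 0.703, 0.963, 0.844 and 0.923 FPKM in the same order.

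Islets are the clusters of hormone cells of the pancreas. KR mice carry a knock-in allele of Foxo1 that encodes arginine at the lysines normally acetylated in this transcription factor. The study asked how deacetylation of FoxO1 bears on lipid use and insulin secretion of beta cells. Both genotypes, KR and WT, were on the C57BL/6 strain. Each was studied refed, by the titles 48 h of fasting and then 6 h of food, and fasted, by the titles 48 h without food. The extraction protocol gives 24 h of fasting for both, and the labels do not settle which holds. Islets of 3 mice per genotype were combined before RNA was isolated, so the 4 groups (refed KR, refed WT, fasted KR, fasted WT) are 1 pooled library each. No group has a replicate, and the mouse to mouse spread was not measured.

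Heat shock proteins bind unfolded segments of other proteins and let them fold, travel or be degraded. HSP70 works in cycles set by J-domain partners, which bring clients and trigger ATP hydrolysis, and by exchange factors such as the BAG and HSP110 proteins, which release the bound nucleotide. HSP90 completes the folding of kinases and receptors, small heat shock proteins hold aggregating proteins, and the ring-shaped chaperonin folds actin and tubulin inside its cavity. The factor HSF1, held inactive by chaperones, turns on the inducible genes of these families when unfolded protein builds up. Beta cells carry a heavy folding load because insulin is made in large amounts, most of it handled by chaperones of the endoplasmic reticulum.

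Relative to the fasted WT library, sequencing depth was 0.418 in refed KR, 0.683 in refed WT and 1.01 in fasted KR, so the refed libraries were the shallower ones. The fragments implied by the deposited bounds had a median over the members of 645 in refed KR and 1716 in fasted WT, and the lowest value was 10. The summed FPKM of 7 beta cell markers was 80960 in refed KR, 57660 in refed WT, 55350 in fasted KR and 40660 in fasted WT (Ins2 had no value in fasted KR). Of 6 acinar markers 4 were under 1 FPKM in every library, as were 3 of 3 red cell markers, and the adipocyte genes Adipoq and Plin1 were at 0. Markers present at higher levels were the acinar gene Cela1 at 35.0 to 57.4 FPKM, the duct gene Krt7 at 413 to 521 FPKM and the adipocyte gene Fabp4 at 0.85 to 5.06 FPKM, and Fabp4 was lower in KR (-1.24, adjusted p = 0.00288, limma). The immune cell markers Cd74, H2-Aa, Cd79a and Cd52 were higher in KR (0.53, 0.77, 0.84 and 0.70, adjusted p = 0.00791, 0.00282, 0.0105 and 0.0401, limma). The macrophage markers Cd68 and Emr1 were not called for genotype. The word cytosolic fits the chosen symbols only in part, as several of their products are known to act elsewhere. Dnaja3, Dnajc11, Dnajc15, Dnajc19 and Dnajc30 are mitochondrial, and Dnajc1, Dnajc10, Dnajb12 and Dnajb14 belong to the endoplasmic reticulum.

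Refeeding did not move the 71 genes one way. With limma's additive model of feeding state and genotype on log2(FPKM + 1), 20 members rose and 22 fell in refed islets at an adjusted p under 0.05, and 29 were not called. Over all tested genes 27.7% rose and 29.2% fell, so the members' shares of 28.2% and 31.0% lie near the background. The median fitted difference was 0.04 over the members and -0.01 over all tested genes. By size, 3 members (Dnajb4, Dnajc10 and Cct3) were at least 1.5-fold higher in refed islets of both genotypes and 4 (Hspa1b, Hspa1a, Dnaja3 and Hsf1) at least 1.5-fold lower, which is 4.23% and 5.63% of the members against 3.46% and 6.22% of all tested genes. At 2-fold in both genotypes 0 members were higher and 1 lower, against 0.368% and 1.43% of all tested genes. In KR alone 5 members were at least 1.5-fold higher in refed islets and 4 lower, against 4.67% and 8.23% of all tested genes, and in WT alone 6 were higher and 6 lower, against 6.89% and 9.22%. The refed and fasted libraries did not overlap for 26 members that were higher when refed and 24 that were lower, and for 36.9% and 38.8% of all tested genes. HSP70, HSP90, J-domain and chaperonin genes had calls in both directions. Each model p rests on 1 residual degree of freedom per gene and a prior worth 7.58 from all tested genes, and the errors given are the model's standard errors (SE) over the 4 libraries.

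**Figure D1:**
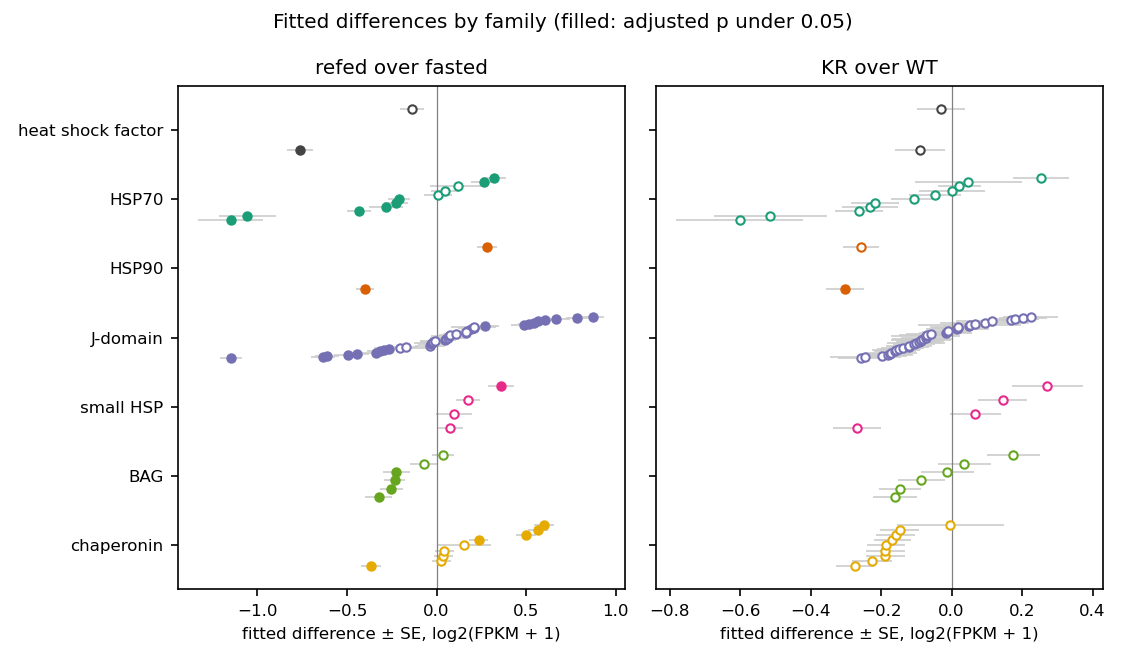
Fitted differences of the 71 members by family, refed over fasted on the left and KR over WT on the right, on the log2(FPKM + 1) scale with SE bars, and filled points where limma's adjusted p is under 0.05. HSP70 genes run from -1.15 to 0.32 and J-domain genes from -1.15 to 0.87 in the refeeding panel, while the KR panel holds 1 filled point, Hsp90aa1.

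Hsf1, the master activator of the heat shock response, was lower in refed islets. It had 15.6 FPKM in refed KR and 17.7 FPKM in refed WT islets, against 28.7 and 28.9 FPKM in fasted KR and fasted WT islets. The refed and fasted values did not overlap, and the deposited bounds of KR and WT overlapped in both feeding states. The fitted difference was -0.76 ± 0.07 (SE), with an adjusted p of 5.91e-05 from limma. Hsf2, the related factor known from development and as a partner of HSF1, had 16.5 FPKM in refed KR, 17.2 FPKM in refed WT, 18.6 FPKM in fasted KR and 18.7 FPKM in fasted WT islets and was not called (adjusted p = 0.119, limma).

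**Figure D2:**
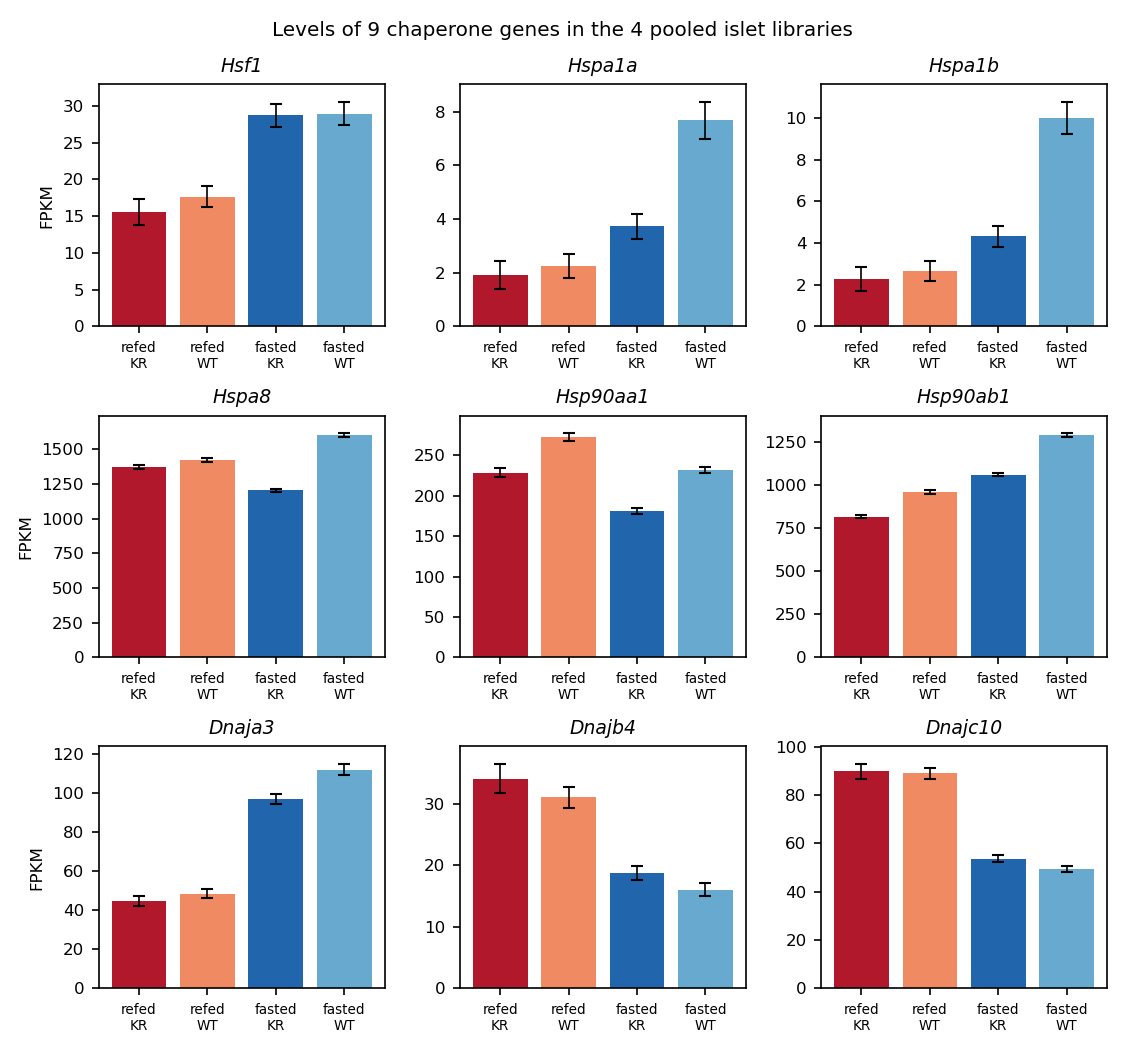
FPKM of 9 members in refed KR, refed WT, fasted KR and fasted WT islets, 1 pooled library each, with the lower and upper bounds deposited by the authors as bars. Hspa1a and Hspa1b have their tallest bar in fasted WT (7.67 and 9.99 FPKM), and Hsf1 and Dnaja3 are lower in both refed libraries than in both fasted ones.

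Hspa1a and Hspa1b, the stress-inducible HSP70 genes, are the classical targets of HSF1 and stood at low levels in these islets. Hspa1a had 1.92 FPKM in refed KR (bounds 1.39 to 2.45) and 2.24 FPKM in refed WT (1.8 to 2.69), against 3.72 FPKM in fasted KR (3.25 to 4.19) and 7.67 FPKM in fasted WT (6.998 to 8.35). Hspa1b had 2.26 and 2.64 FPKM in refed KR and refed WT islets, against 4.33 and 9.99 FPKM in fasted KR and fasted WT islets. The fasted WT library was the highest for both genes and the refed libraries overlapped within their bounds. The fitted refeeding difference was -1.06 ± 0.16 (SE) for Hspa1a and -1.15 ± 0.18 (SE) for Hspa1b, with adjusted p = 0.000691 and 0.00077 by limma. Like the fits, all pairwise log2 ratios here are of FPKM + 1. The fitted values average unlike pairs, since the log2 ratio of refed to fasted was -0.69 in KR and -1.42 in WT for Hspa1a, and -0.71 in KR and -1.59 in WT for Hspa1b. Markers of stellate cells and fibroblasts fell in refed islets too, 4 of 4, where 29.2% of all tested genes did. The median fitted difference of these markers was -0.92, against -0.01 over all tested genes. Their summed FPKM was 15.3 in refed KR and 13.5 in refed WT, against 25.8 in fasted KR and 27.5 in fasted WT, and their part in the result was not tested.

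The genotype ratio of the inducible pair was larger in the fasted state. For Hspa1a the log2 ratio of KR to WT was -0.15 in refed and -0.88 in fasted islets, and for Hspa1b it was -0.16 in refed and -1.04 in fasted islets. They were the 2 members at least 1.5-fold lower in KR in the fasted pair, a size reached downward by 0.485% of all tested genes. Neither was called for genotype, with fitted differences of -0.51 for Hspa1a and -0.60 for Hspa1b (adjusted p = 0.177 and 0.166, limma). With limma-voom on the implied fragments both were called, at -0.88 and -1.01 (adjusted p = 2.18e-07 and 1.36e-11), and over the 6 alternatives the adjusted p reached 0.821 for both. Here the difference between feeding states was not tested, because the additive model uses it as error. The summed FPKM of 4 endothelial markers was 7.25 in refed KR, 8.82 in refed WT, 10.7 in fasted KR and 16.4 in fasted WT islets, the same order as the inducible genes. Its part in the result was not tested, and in pooled tissue fewer cells of a type and less RNA per cell cannot be told apart. Atf3, a stress-induced transcription factor, kept that order too, with 2.28 and 2.57 FPKM in refed KR and refed WT, against 7.99 and 13.9 FPKM in fasted KR and fasted WT. Its list of immediate early and dissociation response genes did not move as one. Of 11 tested genes 3 rose in refed islets and 6 fell, where 27.7% and 29.2% of all tested genes did. Egr1 rose, with 10.8 and 4.34 FPKM in refed KR and refed WT against 1.31 and 1.30 FPKM in fasted KR and fasted WT.

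Both genes lie side by side on chromosome 17 in mm9, Hspa1a at 35106304 to 35109101 and Hspa1b at 35093374 to 35096183. Their longest transcripts were identical at 85.3% of 2973 aligned columns, and 62.3% of all 50-base windows of Hspa1b occur unchanged in Hspa1a. Reads from one can therefore map to the other, and the split between them is uncertain. Their sum was 4.18 FPKM in refed KR and 4.89 FPKM in refed WT, against 8.05 FPKM in fasted KR and 17.7 FPKM in fasted WT, which does not depend on the split. The log2 ratio of KR to WT for the sum was -0.18 in refed and -1.04 in fasted islets.

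The upstream sequences of 5 members are shown because HSF1 recognises inverted repeats of the unit GAA, called heat shock elements. Each is the stretch of 250 bases before the transcription start in RefSeq's GRCm38.p6 annotation, read 5′ to 3′ on the gene's strand, with capitals marking GAANNTTC or TTCNNGAA, each of which reads the same on both strands. Hspa1a and Hspa1b are shown as the inducible pair, Dnaja1 and Dnajb6 as J-domain genes that rose, and Dnaja3 as the J-domain gene that fell most. They lie at chr17:34972157-34972406 (minus strand) for Hspa1a, chr17:34959239-34959488 (minus strand) for Hspa1b, chr4:40722218-40722467 (plus strand) for Dnaja1, chr5:29735648-29735897 (plus strand) for Dnajb6 and chr16:4683820-4684069 (plus strand) for Dnaja3.
Hspa1a: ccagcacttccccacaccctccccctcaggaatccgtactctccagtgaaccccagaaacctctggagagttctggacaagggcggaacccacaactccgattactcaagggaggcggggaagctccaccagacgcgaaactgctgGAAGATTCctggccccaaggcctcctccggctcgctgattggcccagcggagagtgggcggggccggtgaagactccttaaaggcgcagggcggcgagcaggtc
Hspa1b: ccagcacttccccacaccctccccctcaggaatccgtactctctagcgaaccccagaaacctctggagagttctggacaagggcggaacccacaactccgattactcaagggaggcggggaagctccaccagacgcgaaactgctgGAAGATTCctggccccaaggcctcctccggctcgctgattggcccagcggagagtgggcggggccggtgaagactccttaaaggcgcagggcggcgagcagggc
Dnaja1: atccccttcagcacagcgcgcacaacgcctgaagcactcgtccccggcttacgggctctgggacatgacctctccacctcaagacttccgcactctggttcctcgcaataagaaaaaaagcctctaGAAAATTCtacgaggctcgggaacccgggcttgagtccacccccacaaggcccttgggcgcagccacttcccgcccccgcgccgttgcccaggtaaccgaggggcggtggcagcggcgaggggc
Dnajb6: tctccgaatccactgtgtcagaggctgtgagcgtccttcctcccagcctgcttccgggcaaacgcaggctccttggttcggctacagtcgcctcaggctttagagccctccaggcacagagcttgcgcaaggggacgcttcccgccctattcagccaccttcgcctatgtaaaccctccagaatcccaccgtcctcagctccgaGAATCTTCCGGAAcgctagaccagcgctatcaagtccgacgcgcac
Dnaja3: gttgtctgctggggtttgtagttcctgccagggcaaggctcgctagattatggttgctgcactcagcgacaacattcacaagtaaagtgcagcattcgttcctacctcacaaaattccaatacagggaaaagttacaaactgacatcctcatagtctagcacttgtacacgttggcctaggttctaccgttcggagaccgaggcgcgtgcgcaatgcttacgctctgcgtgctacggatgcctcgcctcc

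The Hspa1a and Hspa1b stretches differ at 3 of 250 positions and hold the same pair, starting 104 bases before the start. The shown window of Dnaja1, the first of 3, holds a pair starting 124 bases before its start, and the others hold none. Dnajb6 holds 2 overlapping pairs that start 46 and 41 bases before its start and form the run of 3 units GAATCTTCCGGAA, and the Dnaja3 stretch holds no such letters. The J-domain genes Dnajb4, Dnajc10, Dnajc24 and Dnajc12 rose more than Dnaja1 and Dnajb6 and are not shown. The Dnajc10 window holds a pair and the Dnajc24 window none, while the first Dnajb4 window holds none and its second holds 1. RefSeq windows were matched for 57 of the 71 members. The 14 without a window include Hsf1, Hspa8, Hsp90aa1, Hsp90ab1, Cct4 and Dnajc12, so the shares do not cover them. The matched members gave 76 windows, of which 15 (19.7%) hold a pair. That stands against 10.1% of the windows of tested genes and 12.8% of all 32851 promoter windows. A run of 3 alternating units with the same spacing, in either orientation, is in 2.63% of member windows and 0.466% of all. Both member windows that hold it are overlapping windows of Dnajb6, so by gene it is 1 of 57 members (1.75%), against 0.514% of all genes with a window. By gene, 13 of 57 members (22.8%) held a pair, against 12.1% of tested genes and 14.5% of all genes with a window. A pair was found for 4 of 18 matched members that rose, 5 of 17 that fell and 4 of 22 not called. These matches describe letters and not binding.

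Hspa8, the constitutive HSP70 that serves general folding and vesicle uncoating, was the most abundant member per length. It had 1373 FPKM in refed KR and 1423 FPKM in refed WT, against 1203 FPKM in fasted KR and 1602 FPKM in fasted WT. The fasted pair spanned the refed one, and the fit across genotypes gave 0.01 ± 0.08 (SE, adjusted p = 0.929, limma). Hspa8 exceeded the summed inducible pair 328-fold in refed KR, 291-fold in refed WT, 149.5-fold in fasted KR and 90.7-fold in fasted WT. It made up 25.5%, 24.2%, 23.0% and 25.9% of the summed member FPKM in refed KR, refed WT, fasted KR and fasted WT islets.

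Among the other HSP70 relatives the exchange factors of the HSP110 type moved in unlike directions. Hspa4 rose, with 53.0 and 60.4 FPKM in refed KR and refed WT islets against 44.6 and 45.6 FPKM in fasted KR and fasted WT islets (0.32 ± 0.07 SE, adjusted p = 0.00304, limma). Hspa4l fell, with 15.6 and 17.9 FPKM in refed KR and refed WT against 21.0 and 25.1 FPKM in fasted KR and fasted WT (-0.43 ± 0.07 SE, adjusted p = 0.000775, limma). Hsph1, an inducible member of the same group, fell by less, with 41.2 and 46.5 FPKM in refed KR and refed WT against 45.3 and 58.2 FPKM in fasted KR and fasted WT (-0.22 ± 0.07 SE, adjusted p = 0.0199, limma). The refed and fasted values of Hsph1 overlapped, while those of Hspa4 and Hspa4l did not. The Hsph1 call was lost without the variance trend (adjusted p = 0.0628). In all, 2 of 11 HSP70 members rose and 6 fell, where 27.7% and 29.2% of all tested genes did, with a median of -0.21. The 6 include Hspa1a and Hspa1b, which are not independent because reads of one can map to the other. Hspa2, best known from testis, was called lower (-0.28 ± 0.09 SE, adjusted p = 0.0293, limma), though its ratio was -0.08 in KR and -0.48 in WT and the call was lost without the variance trend (adjusted p = 0.0825).

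**Figure D3:**
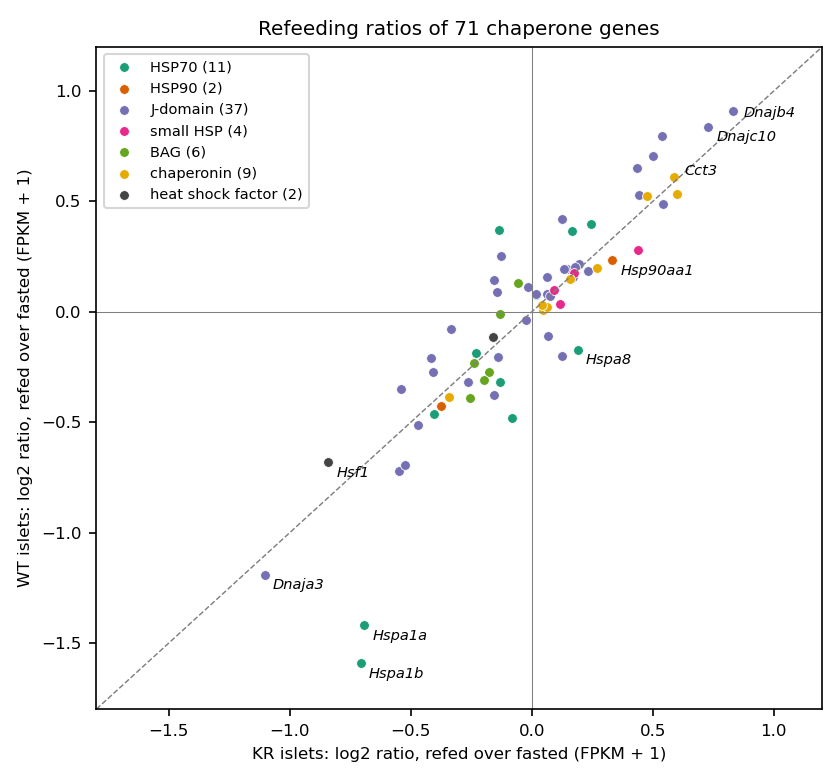
Log2 ratio of refed to fasted on the log2(FPKM + 1) scale for each of the 71 members, KR islets on the horizontal and WT islets on the vertical axis, coloured by family, with the dashed line marking equal ratios. Hspa1a (-0.69 in KR, -1.42 in WT) and Hspa1b (-0.71, -1.59) lie farthest below the line, and 9 members have ratios of opposite sign.

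The 2 cytosolic HSP90 genes went opposite ways with food. Hsp90aa1, the stress-responsive isoform on chromosome 12 at 111929246 to 111934605, rose in refed islets, with 228 and 272 FPKM in refed KR and refed WT against 181 and 232 FPKM in fasted KR and fasted WT. The fitted difference was 0.28 ± 0.06 (SE, adjusted p = 0.00247, limma). The KR refed value lay just under the fasted WT value, so the feeding groups overlapped while the ratio was positive within each genotype, at 0.33 in KR and 0.23 in WT. Hsp90ab1, the constitutive isoform on chromosome 17 at 45704727 to 45710210, fell, with 816 and 957 FPKM in refed KR and refed WT against 1057 and 1288 FPKM in fasted KR and fasted WT (-0.40 ± 0.05 SE, adjusted p = 0.000242, limma). The ratio of Hsp90ab1 to Hsp90aa1 FPKM was 3.57 in refed KR and 3.51 in refed WT, against 5.84 in fasted KR and 5.56 in fasted WT. The balance of isoforms was thus alike in KR and WT and differed with feeding.

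Of the 37 J-domain members 12 rose and 9 fell in refed islets, near the 27.7% and 29.2% of all tested genes, and the fitted differences spanned -1.15 to 0.87. Dnajb4, a cytosolic partner of HSP70, had 34.0 and 31.0 FPKM in refed KR and refed WT, against 18.7 and 16.04 FPKM in fasted KR and fasted WT. Its fitted difference of 0.87 ± 0.07 (SE, adjusted p = 2.41e-05, limma) was the highest of the members. Dnajc10, a disulfide reductase of the endoplasmic reticulum, had 89.7 and 89.0 FPKM in refed KR and refed WT, against 53.7 and 49.3 FPKM in fasted KR and fasted WT (0.78 ± 0.06 SE, adjusted p = 2.50e-05, limma). For both genes the refed libraries lay close together and well above the fasted ones.

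Further J-domain genes that rose include Dnajc24, which acts in diphthamide synthesis, Dnajc12, a cochaperone of aromatic amino acid hydroxylases, Dnaja1, the general HSP70 partner, and Dnajb6, known for holding back aggregation. Dnajc24 had 36.6 and 34.2 FPKM in refed KR and refed WT against 24.9 and 19.3 FPKM in fasted KR and fasted WT (0.67 ± 0.08 SE, adjusted p = 0.00017, limma). Dnajc12 had 81.4 and 75.9 FPKM in refed KR and refed WT against 57.2 and 46.1 FPKM in fasted KR and fasted WT. Dnaja1 had 26.0 and 27.0 FPKM in refed KR and refed WT against 16.8 and 18.4 FPKM in fasted KR and fasted WT. Dnajb6 had 62.3 and 66.4 FPKM in refed KR and refed WT against 45.8 and 42.0 FPKM in fasted KR and fasted WT. The last 3 differences were 0.60, 0.57 and 0.54, each with an SE of 0.07, and adjusted p-values of 0.000141, 0.000184 and 0.000275 by limma. In every one of these 4 genes the lower refed library exceeded the higher fasted one. Dnaja1 and Dnajb6 overlap other annotated genes in mm9, and the strand used in counting is not stated, so reads of those neighbours may be included.

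Among J-domain genes the largest falls were in Dnaja3, Dnaja4 and Dnajb2, of which the last pair was chosen after values were seen. Dnaja3, the mitochondrial partner of Hspa9 on chromosome 16 at 4684070 to 4707693, had 44.6 and 48.5 FPKM in refed KR and refed WT, against 97.2 and 112 FPKM in fasted KR and fasted WT. The fitted difference was -1.15 ± 0.06 (SE, adjusted p = 4.47e-06, limma), and both genotypes showed it, at -1.10 in KR and -1.19 in WT. Hspa9, the mitochondrial HSP70 that Dnaja3 works with and no member here, fell as well, with 273 and 294 FPKM in refed KR and refed WT against 448 and 510 FPKM in fasted KR and fasted WT (-0.75 ± 0.05 SE, adjusted p = 1.61e-05, limma). Dnaja4 differed by -0.63 and Dnajb2, which also binds ubiquitin chains, by -0.61 (SE 0.07 each, adjusted p = 8.77e-05 and 0.000125, limma). Dnajc15 and Dnajc19, J-domain proteins of the mitochondrial import motor, were also chosen after values were seen. They rose by 0.52 ± 0.06 and 0.49 ± 0.07 (SE, adjusted p = 0.000144 and 0.000457, limma). Dnajc19 overlaps another annotated gene in mm9, so reads of that neighbour may be included. Mitochondrial J-domain genes were thus found among both the rising and the falling members.

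Dnajb1, the inducible partner of HSP70 and a classical HSF1 target, was not called with food, unlike Hspa1a. It had 27.2 and 25.8 FPKM in refed KR and refed WT against 24.9 and 29.8 FPKM in fasted KR and fasted WT, and the fitted difference was -0.04 ± 0.08 (SE, adjusted p = 0.722, limma). Fasted WT was its highest library, as for Hspa1a, and its log2 ratio of refed to fasted was 0.12 in KR and -0.20 in WT. Dnajb5 was also not called, at 4.93 and 5.76 FPKM in refed KR and refed WT against 5.55 and 5.36 FPKM in fasted KR and fasted WT. Among small heat shock proteins only Hspb11, whose product is also a subunit of the intraflagellar transport machinery, was called, with 28.9 and 24.6 FPKM in refed KR and refed WT against 21.0 and 20.1 FPKM in fasted KR and fasted WT (0.36 ± 0.07 SE, adjusted p = 0.00269, limma). Hspb1, the stress-inducible small heat shock protein, had 4.49 and 3.56 FPKM in refed KR and refed WT against 4.15 and 3.26 FPKM in fasted KR and fasted WT. It was higher in KR in both feeding states without passing the test (adjusted p = 0.233, limma). The deposited bounds of KR and WT overlapped in both states, on 34 to 76 implied fragments per library. Hspb8, the partner of BAG3, stayed between 14.1 and 15.7 FPKM in the 4 libraries.

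None of the 6 BAG members rose and 4 fell, where 27.7% and 29.2% of all tested genes did, with a median of -0.23. Bag3, an HSF1 target that links HSP70 clients to autophagy, had 11.4 and 9.66 FPKM in refed KR and refed WT against 13.1 and 11.9 FPKM in fasted KR and fasted WT. Its fitted difference was -0.23 ± 0.08 (SE, adjusted p = 0.0304, limma), with both refed libraries under both fasted ones. The fitted falls of the 4 called genes were -0.23 to -0.32, against -1.06 for Hspa1a.

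The cytosolic chaperonin is a double ring of 8 different subunits, each present once per ring, encoded by Tcp1 and the Cct genes. In refed islets 4 rose, 1 fell and 3 were not called, where 27.7% of all tested genes rose and 29.2% fell. Cct3 had 137 and 157 FPKM in refed KR and refed WT against 90.7 and 103 FPKM in fasted KR and fasted WT (0.60 ± 0.06 SE, adjusted p = 5.29e-05, limma). Cct6a and Cct8 rose by 0.57 ± 0.06 and 0.50 ± 0.06, and Tcp1 by 0.23 ± 0.06 (SE, adjusted p = 7.54e-05, 0.000125 and 0.00655, limma). Cct4 went the other way, with 97.1 and 109 FPKM in refed KR and refed WT against 123 and 143 FPKM in fasted KR and fasted WT (-0.36 ± 0.06 SE, adjusted p = 0.000673, limma). Cct2, Cct5 and Cct7 differed by 0.03 to 0.04 and had adjusted p-values of 0.517 to 0.682 by limma.

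Relative to the median of the ring Cct4 was lower in refed islets. Its FPKM was 0.653 of the median of the 8 ring genes, Cct4 included, in refed KR and 0.662 in refed WT, against 0.995 in fasted KR and 1.001 in fasted WT. That median was itself higher when refed, at 149 and 165 FPKM in refed KR and refed WT against 124 and 143 FPKM in fasted KR and fasted WT. The spread of the ring did not follow, since the highest subunit, Cct5 in every library, exceeded the lowest 2.14-fold in both refed libraries and 2.24-fold in both fasted ones. The lowest subunit was Cct4 in both refed libraries, Cct6a in fasted KR and Cct3 in fasted WT. Cct6a, Cct7, Cct8 and Tcp1 overlap other annotated genes in mm9, and reads of those cannot be told apart here. Cct6b, a subunit form best known from testis, is the member nearest the minimum and was not called.

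**Figure D4:**
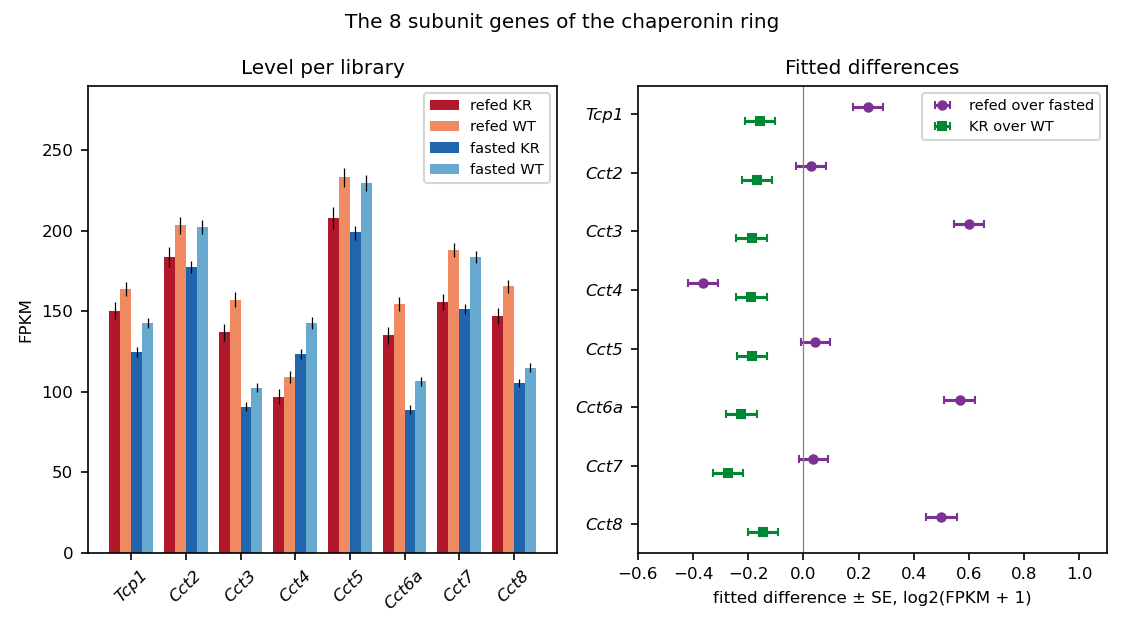
Left, FPKM of the 8 chaperonin ring genes in refed KR, refed WT, fasted KR and fasted WT islets with the authors' deposited bounds as bars. Right, fitted differences with SE on the log2(FPKM + 1) scale. Cct4 alone lies left of 0 for refeeding (-0.36), and all 8 lie left of 0 for KR over WT (-0.27 to -0.15).

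Factors that feed the chaperonin were examined next. Prefoldin hands unfolded actin and tubulin to the ring, and phosducin-like proteins and Txndc9 assist it. Of 8 listed genes with a value 7 rose and none fell, where 27.7% and 29.2% of all tested genes did, and the median fitted difference was 0.43 against -0.01 over all tested genes. Vbp1, a prefoldin subunit, had 70.8 and 80.8 FPKM in refed KR and refed WT against 48.3 and 47.3 FPKM in fasted KR and fasted WT (0.65 ± 0.07 SE, adjusted p = 0.000106, limma), and the exception, Pdcl3, had 0.12 ± 0.07 (SE, adjusted p = 0.171, limma). Of the 8 listed actin and tubulin genes 5 rose and 2 fell, against the same shares of all tested genes. Tuba1a had 174 and 232 FPKM in refed KR and refed WT against 78.1 and 79.7 FPKM in fasted KR and fasted WT (1.34 ± 0.09 SE, adjusted p = 1.01e-05, limma), whereas the actin genes Actb and Actg1 differed by -0.37 and -0.17 (adjusted p = 0.000704 and 0.0223, limma).

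Cochaperones of HSP90 and HSP70 were mostly not called with food, as 2 of 19 rose and 5 fell, where 27.7% and 29.2% of all tested genes did. Ptges3, the p23 cochaperone that stabilises closed HSP90, had 55.5 and 62.6 FPKM in refed KR and refed WT against 79.4 and 99.6 FPKM in fasted KR and fasted WT (-0.59 ± 0.06 SE, adjusted p = 0.000109, limma). Fkbp5, a glucocorticoid-induced HSP90 cochaperone, had 27.9 and 29.1 FPKM in refed KR and refed WT against 45.1 and 45.2 FPKM in fasted KR and fasted WT (-0.65 ± 0.06 SE, adjusted p = 6.85e-05, limma). Stip1, which bridges HSP70 and HSP90, differed by 0.00 ± 0.07 (SE, adjusted p = 0.963, limma). Among known targets or regulators of heat shock factors not in those lists, Ubb, Hsbp1 and Mrpl18 rose, Serpinh1 and Zfand2a fell, and Cryab was not called. Zfand2a, an HSF1 target, had 19.0 and 22.02 FPKM in refed KR and refed WT against 21.9 and 38.6 FPKM in fasted KR and fasted WT, with its highest value in fasted WT like Hspa1a. Of 10 organelle chaperones 2 rose and 5 fell, against the same shares of all tested genes.

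Few members were called for genotype. In limma's additive model none of the 71 members rose in KR islets and 1 fell, against 0.602% and 0.661% of all tested genes, 1.26% in both directions together. At an unadjusted p under 0.05 there were 35 members (49.3%), against 16.4% of all tested genes. The fitted difference was negative for 50 members (70.4%), against 64.8% of all tested genes, and the median was -0.09 against -0.04. In the refed pair 50 members had a ratio under 0 (63.9% of all tested genes did) and in the fasted pair 46 (59.7% did). No member was at least 1.5-fold apart in both pairs, which 0.176% of all tested genes were upward and 0.159% downward. The KR and WT libraries did not overlap for 4 members higher in KR and 13 lower, against 5.43% and 11.3% of all tested genes. After rescaling by the median of ratios these counts were 44 members under 0 and 24 at an unadjusted p under 0.05, against 51.0% and 14.1% of all tested genes.

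Hsp90aa1 was the member that fell in KR. Its 228 FPKM in refed KR stood against 272 FPKM in refed WT, and its 181 FPKM in fasted KR against 232 FPKM in fasted WT. The KR values lay under both WT values, with log2 ratios of -0.25 in refed and -0.35 in fasted islets and a fitted difference of -0.30 ± 0.06 (SE, adjusted p = 0.0421, limma). The call is marginal, since the adjusted p ranged from 1.23e-06 to 0.575 over 6 alternatives and passed in 3 of them, and after rescaling by the median of ratios the difference was -0.26 (adjusted p = 0.0677). Hsp90ab1 had a similar fitted difference of -0.26 ± 0.05 (SE) and an adjusted p of 0.0533 by limma.

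None of the 8 chaperonin ring genes was called for genotype. All 8 had a negative log2 ratio of KR to WT in both the refed and the fasted pair, as did 63.9% and 59.7% of all tested genes in each pair alone, and the fitted differences were -0.27 to -0.15. Cct7 came nearest, with 156 FPKM in refed KR against 188 FPKM in refed WT and 151 FPKM in fasted KR against 184 FPKM in fasted WT (-0.27 ± 0.05 SE, adjusted p = 0.0533, limma). The median of the ring was 149 FPKM in refed KR against 165 FPKM in refed WT, and 124 FPKM in fasted KR against 143 FPKM in fasted WT. Of the 8 actin and tubulin genes 2 fell in KR, where 0.661% of all tested genes did, and all 8 fits were negative. The 2 were Actg1 (-0.44 ± 0.05 SE, adjusted p = 0.00688, limma) and Tubb5 (-0.35 ± 0.06 SE, adjusted p = 0.0289, limma). Cochaperones had 18 of 19 fits negative and none called. Over all tested genes 64.8% of fits were negative.

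Not every member was lower in KR. Hspa12a, an atypical HSP70, had 9.46 FPKM in refed KR against 7.96 FPKM in refed WT and 9.33 FPKM in fasted KR against 7.496 FPKM in fasted WT. Hspb1 was also higher in KR in both pairs, though its KR and WT bounds overlapped in each. Neither gene was called (adjusted p = 0.177 and 0.233, limma). The largest refed genotype ratio was that of Dnajc17, a J-domain protein linked to splicing, at -0.44, with 8.51 FPKM in refed KR and 11.9 FPKM in refed WT against 9.40 FPKM in fasted KR and 9.79 FPKM in fasted WT. It too was not called (adjusted p = 0.273, limma). Its refed bounds overlapped, at 6.52 to 10.5 FPKM in KR and 10.04 to 13.7 FPKM in WT. Dnajc17 had 73.4 implied fragments in refed KR, and its locus overlaps other annotated genes in mm9. Of 10 organelle chaperones none rose in KR and 2 fell, where 0.602% and 0.661% of all tested genes did. Hspa5, the main HSP70 of the endoplasmic reticulum, fell by 0.32 ± 0.05 (SE, adjusted p = 0.02, limma). Hspd1, the mitochondrial chaperonin, fell by 0.32 ± 0.05 (SE, adjusted p = 0.0334, limma). The summed FPKM of beta cell markers was higher in KR in both pairs. Of its 7 measured genes 6 rose in KR, where 0.602% of all tested genes did. FPKM is a share of the library, and the part of those abundant messages in the lower chaperone values was not tested.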

How the data were processed

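RNA of 4 pooled islet libraries was enriched for poly-A and prepared with an Illumina TruSeq kit, per the labels' protocols. The submitters' processing notes name bcl2fastq 1.8.4, TopHat2 2.0.4 and build mm9. The authors deposited FPKM with bounds and a status per gene. The program behind these values, its annotation and its scaling total were not given in the sources used here. Only values of status OK were kept, rows were summed per symbol, and starts are counted from 1. The 11953 genes with a value in each library and a mean of at least 1 FPKM were tested on log2(FPKM + 1), which understates changes of low genes. The test was limma 3.58.1 (R 4.3.3), with feeding state and genotype as additive terms and a trended variance prior. P-values were adjusted by Benjamini-Hochberg over all of them, and measure only the spread between these libraries. Fragments implied by the bounds lay within 0.05 of a whole number in all libraries for 51 of 71 members and gave the depths, and intervals from them cover counting error only. Genes named are a panel of inducible and general chaperones, all chaperonin genes, members called and at least 1.5-fold apart in both pairs, the 3 highest and lowest members of each pairwise ratio, and listed partners. The members and lists were chosen with earlier results of these data known. One listed gene is not reported here. Alternatives were another pseudocount, no filter, rescaling, other variance priors, voom, single pairs, a 2-fold size and a longer promoter window.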

Additional observations from a re-analysis of the deposited data

Results flagged for a closer look

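For Hspa2 the log2 ratio of KR to WT was 0.20 in refed islets and -0.20 in fasted islets, a difference of 0.40. The libraries of each feeding state moved in opposite directions and their deposited bounds did not overlap, with 28.8 FPKM in refed KR against 24.9 FPKM in refed WT and 30.6 FPKM in fasted KR against 35.2 FPKM in fasted WT. For Hspa8 the log2 ratio of refed to fasted was 0.19 in KR islets and -0.17 in WT islets, a difference of 0.36. Neither difference was tested, because each group is 1 library and the additive model uses the interaction as error.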

How the results depend on the processing

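The fit assumes that genotype acts alike in both feeding states, and a change of sign between pairs counts as error. Without the filter on low values limma called 0 genes in either contrast (6207 at an unadjusted p under 0.05 for refeeding, 1918 for genotype), so 0 members were higher and 0 lower with refeeding, against 20 and 22, and 0 lower in KR, against 1. The other 5 alternatives called 16 to 21 members higher and 19 to 23 lower with refeeding. A 2-fold size in both pairs left 0 members higher and 1 lower, against 3 and 4. By single pairs, chosen after seeing the data, 5 were at least 1.5-fold higher in KR and 6 in WT, and 4 lower in KR and 6 in WT. For genotype, as deposited, 72 genes were higher and 79 lower in KR. Without the variance trend these were 3 and 2, with 0 members lower. Rescaled by the median of ratios, 51 genes and 0 members were lower, and 62.8% of calls were higher, against 47.7%. The robust prior gave 130 genes and 3 members lower, a pseudocount of 0.1 gave 3 members lower, and voom gave 331 genes higher, 417 lower, 2 members higher and 13 lower. The cause was not tested. Fitted genotype differences near 0 reversed for Cct6b (0.018 rescaled, 0.017 with voom), Hsf2 (0.0091 rescaled) and Hspa2 (-0.028 with voom). With the whole 300-base window 23.7% of member windows held a pair, against 15.1% of all. Leaving out a library leaves no residual degree of freedom, so single pairs stand in for it. No paired analysis was possible because each group has 1 library and no replicate numbers to match, although the additive fit compares refed with fasted within each genotype. Depth limits the lowest members most, such as Dnajb3 and Cct6b with 10 and 19 implied fragments in refed KR.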
